A study of Mus musculus with 4 samples.

Results

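The 10 genes described here are Per1, Per2, Per3, Cry1, Cry2, Clock, Npas2, Nr1d1, Nr1d2 and Dbp, which encode parts of the circadian clock and 1 of its outputs. They were taken as a list of clock genes because RUVBL2 has been reported as a component of the clock, and make up 10 of 21779 protein-coding genes. Binding of RUVBL2, an AAA+ ATPase of chromatin remodelling complexes, was mapped with an ABclonal antibody by chromatin immunoprecipitation and sequencing (ChIP-seq) in hypothalamus of wild-type (WT) C57BL/J mice, which were male and 8 weeks old. The series holds 4 libraries in 2 groups, 2 RUVBL2 ChIP libraries and 2 input libraries from the same tissue and genotype. The results rest on the peak lists of ChIP replicate 1, with 3943 peaks, and ChIP replicate 2, with 6403 peaks. Separate values of the input libraries were not analysed here. The labels say neither whether the replicates came from separate animals or pools nor at what time of day the tissue was taken. The tissue was the whole hypothalamus, so fewer cells with binding and less binding per cell cannot be told apart.

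The mammalian clock is a feedback loop of transcription. CLOCK, or its relative NPAS2, pairs with BMAL1 on E-box sequences and switches on the Per and Cry genes, whose proteins then return to the nucleus and repress that pair. In a second loop the nuclear receptors NR1D1 and NR1D2 (REV-ERBα and REV-ERBβ) repress the gene of BMAL1 and are themselves clock-controlled. DBP is a transcription factor that carries the rhythm to other genes through D-box sequences. The master clock of mammals lies in the suprachiasmatic nucleus, a small part of the hypothalamus.

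Clock and Nr1d2 held RUVBL2 peaks that overlapped between the lists, with summits 624 bp apart at Clock and 129 bp apart at Nr1d2. Per2 held a peak in replicate 1 only, and Per3, Cry1, Cry2 and Npas2 held a peak in replicate 2 only. Per1, Nr1d1 and Dbp held none in either list. A peak was counted for a gene when it overlapped the gene body or lay within 3 kb of a gene end, in GRCm38 coordinates. By this rule 3 of the 10 clock genes held a peak in replicate 1, where 21.0% of all protein-coding genes did. In replicate 2 it was 6 of 10 clock genes, against 32.8% of protein-coding genes. A shared region, the joined interval of peaks that overlapped between the lists by at least 1 bp, lay at 2 of the 10 clock genes and at 17.3% of protein-coding genes. With so few members, the shares in replicate 1 and in shared regions were each within 1 gene of the background. Taking either list, 7 of 10 clock genes (70%) and 35.9% of protein-coding genes held a peak. No test of the list was made, and each gene is described below by its own peaks.

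**Figure D1:**
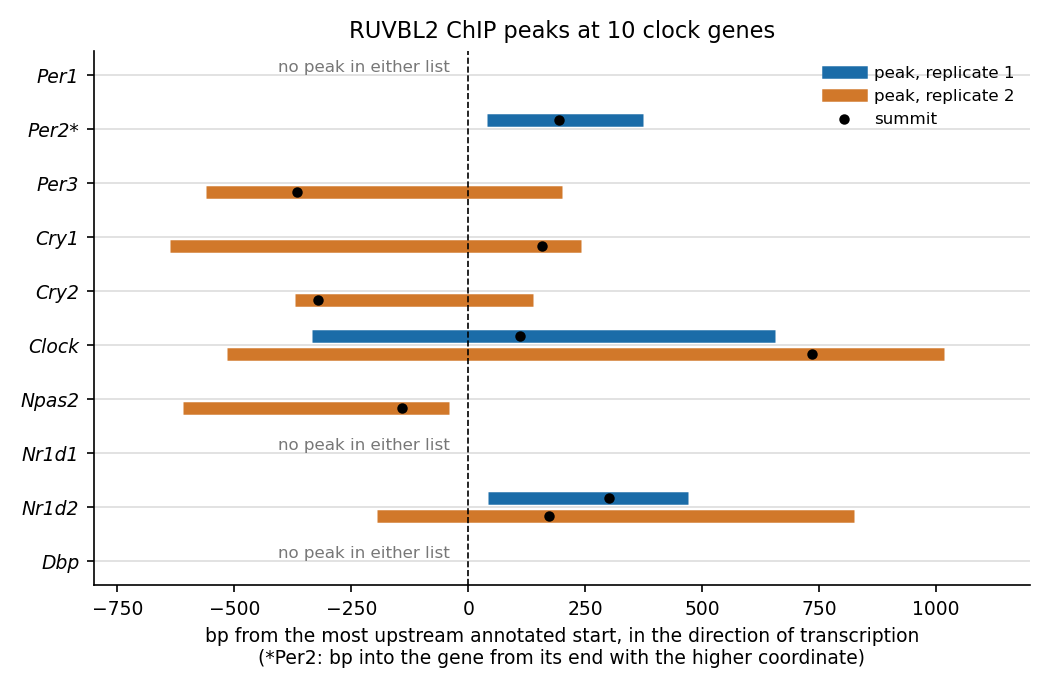
Peaks of both ChIP libraries at the 10 clock genes, drawn as bars along the distance in bp from the most upstream annotated start, positive in the direction of transcription; black dots are summits. For Per2, marked with an asterisk, the distance runs into the gene from its end with the higher coordinate. All 9 peaks lie within about 1 kb of that point, and Clock and Nr1d2 have a bar in each colour.

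All 9 peaks at the clock genes lay at a single end of the gene, and none lay deep in a gene body. The RefSeq promoter table of GRCm38.p6 gives a start for 9 of the 10 clock genes, all but Per2. For the 6 of these with a peak, it lay at the start. In replicate 1, 1 of the 9 genes (Clock) had an annotated start inside a peak, against 11.3% of 17492 protein-coding genes in the table. In replicate 2 it was 5 of 9 clock genes (Per3, Cry1, Cry2, Clock and Nr1d2), against 21.5%. Shared regions covered a start of 2 of the 9 clock genes (Clock and Nr1d2) and of 13.3% of protein-coding genes. At Nr1d2 the start lay in the replicate 2 peak only, since the peak of replicate 1 began 43 bp past it. This place is the usual one in these libraries: in 11079 coding genes longer than 10 kb, a shared region lay within 3 kb of the start end for 18.4% and within 3 kb of the other end for 1.67%.

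Nr1d2, the gene of REV-ERBβ, a nuclear receptor that represses transcription, had the best-ranked peak of the 10 genes in each list. In replicate 1 it lay on chromosome 14 from 18238636 to 18239063, 428 bp wide, with a fold enrichment over background of 6.29 (95% counting interval of the reads at the summit, 4.08 to 9.30). It ranked 533 of 3943 by −log10 p and rested on a summit pileup of 23 reads. In replicate 2 it lay from 18238281 to 18239302, 1022 bp wide, with a fold of 7.36 (5.39 to 9.82), and ranked 296 of 6403 with 44 reads. The narrower peak lay wholly inside the wider one. The summits were 129 bp apart, 301 bp past the annotated start (18239106, minus strand) in replicate 1 and 172 bp past it in replicate 2. The joined region was number 254 of 3111 shared regions when each was placed by the worse of its ranks. The shared region with the most similar pair of folds at a protein-coding gene end, over the 2 libraries, was that nearest Ptbp2, a splicing regulator, with folds of 6.16 and 7.35.

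Nr1d1, the gene of REV-ERBα, lies on chromosome 11 (98767932 to 98775377) and held no peak. The nearest peak of replicate 1 lay 19346 bp away on its 5′ side, with Msl1 as the gene of the nearest end and a fold of 5.86 (3.60 to 9.08). Replicate 2 listed an overlapping peak 19350 bp away, with a fold of 4.24 (2.70 to 6.39). Its nearest peak to Nr1d1 lay 16662 bp away on the 3′ side, was absent from replicate 1 and ranked 6157 of 6403. The 250 bases before the starts of these 2 related genes are shown because they differ in both peak and composition. They are chr14:18239107-18239356 for Nr1d2 and chr11:98775378-98775627 for Nr1d1, minus strand, from RefSeq (GRCm38.p6). Capitals mark matches to the motifs listed further on.
Nr1d2: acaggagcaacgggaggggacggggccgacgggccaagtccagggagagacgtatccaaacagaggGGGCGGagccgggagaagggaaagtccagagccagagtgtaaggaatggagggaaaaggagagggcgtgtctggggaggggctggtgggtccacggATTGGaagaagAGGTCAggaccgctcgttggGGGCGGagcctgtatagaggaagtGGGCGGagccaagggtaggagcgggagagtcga
Nr1d1: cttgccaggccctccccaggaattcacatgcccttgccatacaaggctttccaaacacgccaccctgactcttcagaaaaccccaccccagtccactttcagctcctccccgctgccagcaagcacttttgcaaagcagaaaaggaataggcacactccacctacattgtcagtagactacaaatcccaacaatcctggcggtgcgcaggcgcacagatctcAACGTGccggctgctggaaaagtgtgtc
The Nr1d2 sequence holds 3 GC boxes and, on the other strand, 1 copy of the CCAAT box. It also holds the core that nuclear receptors bind, AGGTCA. The replicate 2 peak covered 196 of its 250 bases. The Nr1d1 sequence holds only a variant E-box (CACGTT, on the other strand). G+C made up 65.7% of the 300 bp window around the Nr1d2 start and 56.3% of that around the Nr1d1 start.

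Clock encodes the DNA-binding partner of BMAL1 and was the other gene with a peak in both lists. In replicate 1 its peak lay on chromosome 5 from 76304136 to 76305126, 991 bp wide, with a fold of 4.61 (2.66 to 7.53). It ranked 2643 of 3943, with 14 reads at the summit. In replicate 2 the peak ran from 76303775 to 76305307, 1533 bp wide, with a fold of 6.86 (4.49 to 10.1), and ranked 1312 of 6403 with 24 reads. The replicate 2 peak held the whole of the replicate 1 peak, and the intervals of the folds overlapped. The promoter table gives Clock 3 starts on the minus strand, and both peaks covered the upstream pair of them, at 76304792 and 76304548. The summit of replicate 1 lay 111 bp past the start at 76304792. The summit of replicate 2 lay 624 bp further into the gene, 735 bp past the same start, where the median gap between summits of shared regions was 93 bp. The shared region at Clock was number 1482 of 3111 by worse rank. The region with the most similar folds was that nearest Mdm2, which encodes a ubiquitin ligase of p53, with folds of 4.62 and 6.86.

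The 250 bases before the upstream start of Clock (chr5:76304793-76305042, minus strand) lay wholly inside both peaks and are shown as the sequence covered in each library.
Clock: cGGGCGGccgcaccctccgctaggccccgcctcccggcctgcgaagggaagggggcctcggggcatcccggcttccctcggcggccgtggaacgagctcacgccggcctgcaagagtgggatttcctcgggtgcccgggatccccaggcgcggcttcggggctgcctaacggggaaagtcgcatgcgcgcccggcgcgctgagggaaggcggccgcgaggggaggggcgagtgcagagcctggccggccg
They hold a GC box at their far end and no E-box, D-box or CCAAT box. The window around this start had 76.3% G+C, above 96.2% of the 21263 windows of protein-coding genes.

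Npas2, which can take the place of CLOCK in forebrain, held a peak in replicate 2 only. It lay on chromosome 1 from 39193662 to 39194230, 569 bp wide, with a fold of 4.70 (2.92 to 7.21) and 19 reads at the summit, and ranked 3655 of 6403. The peak ended 42 bp before the annotated start at 39194272, and its summit lay 142 bp before that start. The nearest peak of replicate 1 lay 4626 bp beyond the 3′ end of Npas2. It overlapped a replicate 2 peak 4482 bp beyond that end, and its summit lay 203 bp from an end of Rpl31, a ribosomal protein gene. These were the closest peaks outside the 3 kb limit, while all 9 counted peaks touched the gene itself.

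**Figure D2:**
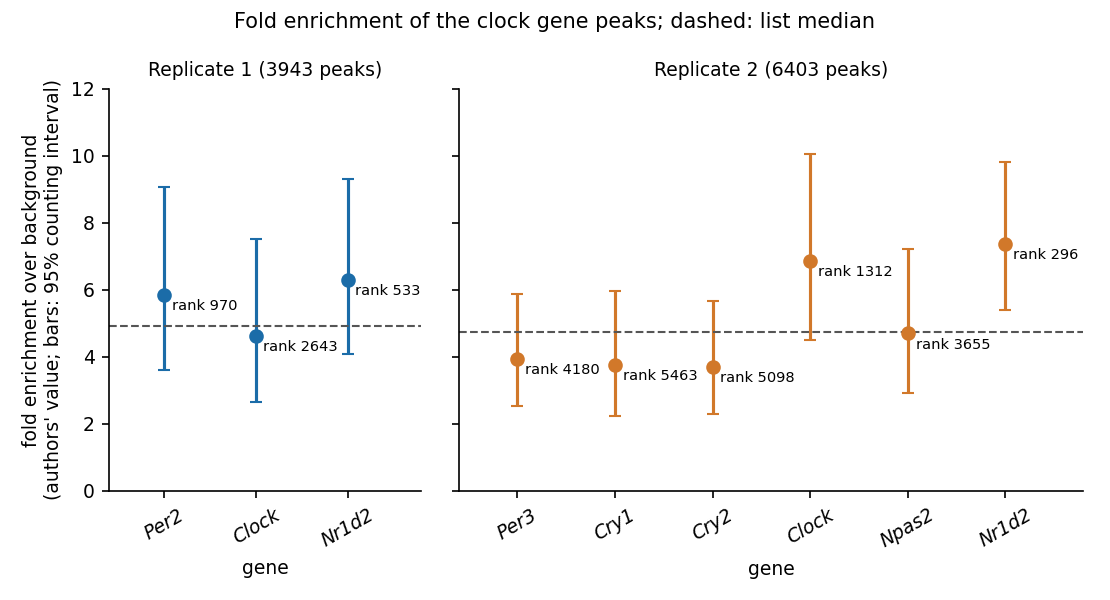
Fold enrichment over background of the clock gene peaks in replicate 1 (left) and replicate 2 (right), as the authors' peak caller gave it, with 95% counting intervals, ranks by −log10 p, and the list median as a dashed line. Nr1d2 lies above the median in both lists. Clock lies below it in replicate 1, and Per3, Cry1, Cry2 and, narrowly, Npas2 lie below it in replicate 2.

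The Per genes encode the PERIOD proteins, which act with the CRYs as repressors, and none of the 3 held a shared region. The peak at Per2 in replicate 1 lay on chromosome 1 from 91458978 to 91459311, 334 bp wide, with a fold of 5.86 (3.60 to 9.08) and 18 reads, and ranked 970 of 3943. Its summit lay inside the gene, 193 bp from the gene end at 91459351. Replicate 2 listed no peak there, and its nearest lay 16677 bp away, with a summit 248 bp from an end of Ilkap. Such a miss was uncommon: of the 1085 replicate 1 peaks ranked as high as that of Per2 or higher, 61 (5.62%) overlapped no replicate 2 peak. The Per2 peak was therefore among the stronger peaks of replicate 1 that the longer list did not hold.

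Per3 held a peak in replicate 2 on chromosome 4 from 151044465 to 151045226, 762 bp wide, with a fold of 3.94 (2.53 to 5.88) and 22 reads, and ranked 4180 of 6403. It covered the start at 151044665, and its summit lay 366 bp before that start. An end of the gene model Gm38529 was nearer this summit, at 178 bp, than the end of Per3, at 324 bp. The nearest peak of replicate 1 lay 12820 bp away on the 5′ side, 203 bp by its summit from an end of Vamp3, and had a counterpart in replicate 2.

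Per1 lies on chromosome 11 (69095108 to 69109965) and held no peak. On its 5′ side both lists held a peak that overlapped between them, 6345 bp away in replicate 1 and 5635 bp away in replicate 2. The folds there were 4.51 (2.77 to 6.98) in replicate 1 and 5.51 (3.90 to 7.57) in replicate 2. These summits lay 55 and 89 bp from an end of Vamp2, the vesicle SNARE gene, and 6525 and 6491 bp from Per1. From the nearer annotated start of Per1 the summits were 10366 and 10332 bp away.

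The sequences before the starts of Per3 (chr4:151044666-151044915, minus strand) and Per1 (chr11:69098699-69098948, plus strand, the upstream of 2 starts) are shown because they carry a different clock motif each.
Per3: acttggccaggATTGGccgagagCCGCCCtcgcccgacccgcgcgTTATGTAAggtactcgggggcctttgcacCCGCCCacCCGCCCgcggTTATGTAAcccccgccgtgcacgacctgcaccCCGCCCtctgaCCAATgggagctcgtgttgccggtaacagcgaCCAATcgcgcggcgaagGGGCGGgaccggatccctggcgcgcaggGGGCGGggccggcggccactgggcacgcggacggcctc
Per1: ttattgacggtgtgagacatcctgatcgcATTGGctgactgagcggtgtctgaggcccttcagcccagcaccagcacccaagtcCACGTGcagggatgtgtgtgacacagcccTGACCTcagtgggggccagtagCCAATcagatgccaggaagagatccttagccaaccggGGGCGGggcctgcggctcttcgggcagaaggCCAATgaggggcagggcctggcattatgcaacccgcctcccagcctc
In Per3 the D-box TTATGTAA, the kind of site that DBP binds, occurs 2 times, at 205 and 158 bases before the start, and the replicate 2 peak covered all 250 bases. In Per1 the E-box CACGTG, the kind of site that CLOCK and BMAL1 bind, begins 166 bases before the start, outside any peak.

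Cry1 and Cry2 encode the cryptochromes, the main repressors of CLOCK and BMAL1, and each held a low-ranked peak in replicate 2 only. At Cry1 it lay on chromosome 10 from 85184812 to 85185692, 881 bp wide, with a fold of 3.76 (2.24 to 5.97) and 16 reads, and ranked 5463 of 6403. It covered the start at 85185054, with its summit 158 bp past it. At Cry2 the peak lay on chromosome 2 from 92433931 to 92434440, 510 bp wide, with a fold of 3.70 (2.30 to 5.68) and 19 reads, and ranked 5098. It covered the start at 92434069, with its summit 322 bp before it. Replicate 1 listed no peak near either gene. The nearest lay 691 kb from Cry1, with a summit 339 bp from an end of Nuak1, and 166 kb from Cry2, with a summit 500 bp from an end of Chst1. Among the 10 genes these were the largest distances from a gene body to its nearest peak in either list. Measured from summit to start, Npas2 in replicate 1 (174 kb) lay farther from its nearest peak than Cry2 (166 kb).

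The 250 bases before the Cry1 start (chr10:85185055-85185304, minus strand) lay wholly inside the replicate 2 peak and are shown for their E-box.
Cry1: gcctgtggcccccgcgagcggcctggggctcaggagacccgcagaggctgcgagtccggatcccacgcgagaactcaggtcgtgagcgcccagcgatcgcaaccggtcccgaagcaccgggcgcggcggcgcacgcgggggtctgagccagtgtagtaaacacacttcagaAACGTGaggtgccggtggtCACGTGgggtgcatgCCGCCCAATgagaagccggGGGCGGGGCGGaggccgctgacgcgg
The E-box CACGTG begins 60 bases before the start, with a variant E-box on the other strand at 79 bases. Near the start lie a GC box that overlaps a CCAAT box and a further pair of GC boxes that overlap each other.

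Dbp, the output gene, lies on chromosome 7 (45705100 to 45710203) and held no peak. Replicate 2 listed a peak 5035 bp away on the 5′ side, with a fold of 3.02 (1.74 to 4.94), which ranked 6293 of 6403, was absent from replicate 1 and lay 766 bp from an end of Car11. On the 3′ side both lists held a peak, 7385 bp away in replicate 1 and 7469 bp away in replicate 2, with folds of 6.72 (4.36 to 9.94) and 10.2 (7.36 to 13.9). These summits lay 192 and 101 bp from an end of Sphk2, a sphingosine kinase gene. Both lists thus held a peak within 10 kb of Per1 and of Dbp, each nearer the end of a neighbouring gene.

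**Figure D3:**
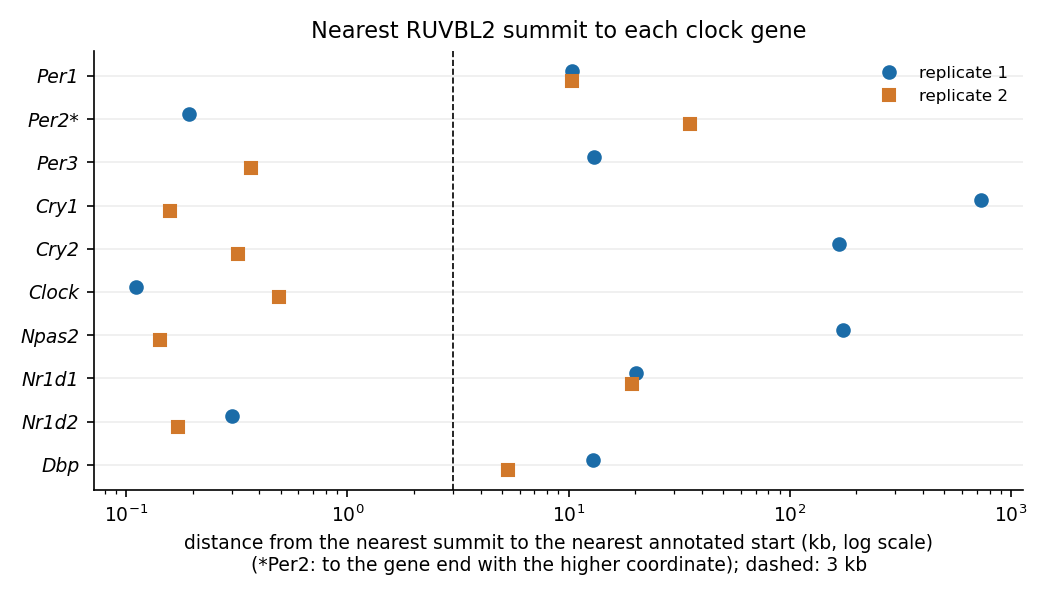
Distance from the nearest summit to the nearest annotated start of each clock gene (kb, log scale), circles for replicate 1 and squares for replicate 2; for Per2, marked with an asterisk, the distance is to the gene end with the higher coordinate. The distances fall below 0.5 kb or above 5 kb, and 5 genes have a symbol on each side of the dashed 3 kb line.

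The 4 genes listed by replicate 2 only had folds below the median of that list and summit pileups no higher than its median. Their folds ran from 3.70 to 4.70 and their summit pileups from 16 to 22 reads, where the list had medians of 4.74 and 22. Of the 2803 replicate 2 peaks with pileups in that range, 35.0% overlapped a replicate 1 peak. Replicate 1 listed no peak with fewer than 10 reads. Over the 3111 shared regions the pileup of replicate 2 was a median of 1.5 times that of replicate 1, and it was 1.71 times at Clock and 1.91 times at Nr1d2. Counts of reads under a peak that was not listed were not analysed here, so a missing peak does not show that binding was absent. Of all protein-coding genes, 14.9% held a peak in replicate 2 only and 3.13% in replicate 1 only, where 4 and 1 of the 10 clock genes did.

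In replicate 1 the 3 clock gene peaks had a median fold of 5.86, against 4.93 over the list, and a median rank of 970, against a middle rank of 1967. In replicate 2 the 6 peaks had a median fold of 4.32, against 4.74 over the list, and a median rank of 3917.5, against 3199. The median width was 428 bp in replicate 1, against 415 bp over the list, and 821.5 bp in replicate 2, against 521 bp over the list. Only the Nr1d2 peak in each list and the Per2 peak in replicate 1 had a rank of 1000 or better by −log10 p. The Per2 rank of 970 was the best rank of a tie, since 1085 replicate 1 peaks ranked as high or higher.

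At their richest annotated start, the clock genes with a replicate 2 peak had more G+C than the others with a listed start. Of the 9 clock genes with a window of 300 bp around an annotated start, 6 had a start in the top 1 of 4 nearly equal classes of windows by G+C (65.0% and above), namely Per3, Cry1, Cry2, Clock, Npas2 and Nr1d2. All 6 held a peak in replicate 2, and 2 of the 6 (Clock and Nr1d2) held one in replicate 1. The other three, Per1 (64.7% at its richer start), Dbp (60.3%) and Nr1d1 (56.3%), held none in either list. Nr1d2, at 65.7%, and Per1 lay just on either side of the class boundary. Over the clock gene starts the median was 68.0% G+C, against 56.3% over all 21263 windows of protein-coding genes. In both libraries starts were covered more often the richer they were: replicate 2 peaks covered 38.1% of starts in the richest class and 2.50% in the poorest, and replicate 1 peaks covered 22.8% and 0.821%. By this measure, which asks for the start itself inside a peak, the counts in the richest class were 5 of the 6 clock genes in replicate 2 (not Npas2) and 1 of 6 (Clock) in replicate 1. These are counts of genes placed by their richest start, while the class shares are of single starts. No class share of genes with a peak in the body or within 3 kb is given, so the 6 of 6 has no like background. Starts inside a shared region had a median of 65.0% G+C, against 55.0% outside. The part of base composition in which clock genes held a peak was not tested.

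**Figure D4:**
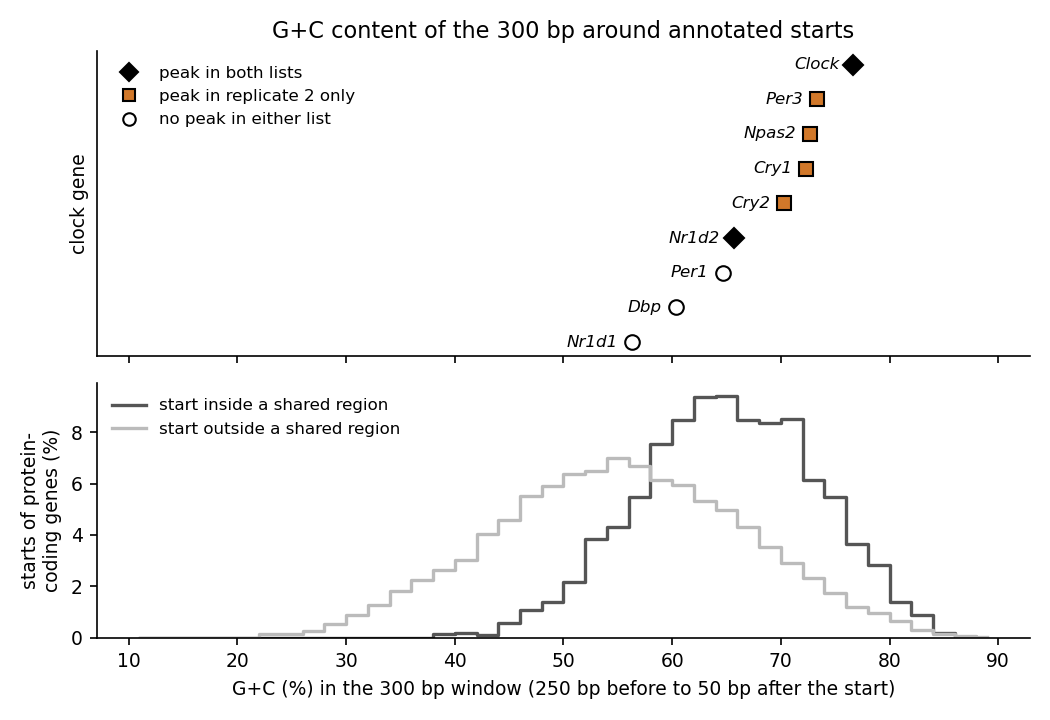
Upper panel, the share of G+C in the 300 bp window around the richest annotated start of each of 9 clock genes, with the symbol giving the lists that hold a peak at the gene. Lower panel, the same measure over starts of protein-coding genes, inside and outside shared regions. The 3 clock genes without a peak have the lowest G+C of the 9, from 56.3% to 64.7%.

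The motifs were searched on both strands of the 300 bp windows, which include the 50 bases after each start. The E-box CACGTG was in 2 of the 12 windows of clock gene starts, those of Per1 and Cry1, and in 7.84% of all windows. The variant CACGTT was in 3 of 12 (Cry1, Cry2 and Nr1d1) and in 4.68% of all windows. The D-box, TTATGTAA or TTACGTAA, was in 1 of 12, that of Per3, and in 1.03% of all. The receptor core AGGTCA was in 3 of 12 (Per1, Clock and Nr1d2) and in 14.7% of all. No window of a clock gene held the cAMP element TGACGTCA, which 2.23% of all windows held. The CCAAT box was in 8 of 12 and in 38.2% of all, and the GC box GGGCGG in 10 of 12 and in 46.2% of all. In windows whose start lay inside a shared region, the GC box was in 73.3%, the E-box in 10.7% and the D-box in 0.684%. The variant E-box was in 5.20% of these windows, the cAMP element in 4.29%, the CCAAT box in 31.4% and AGGTCA in 9.72%. An E-box was thus present at a clock gene with a replicate 2 peak (Cry1) and at one without a peak (Per1).

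Other genes of the clock were read from 3 lists of 58 genes in all. Of 37 genes of the loop and its modifiers, 18 (48.6%) had a replicate 1 peak, against 21.0% of all protein-coding genes. Replicate 2 peaks lay at 29 of the 37 (78.4%), against 32.8%. Shared regions lay at 16 of them (43.2%), against 17.3%. Among the best placed by the worse of their ranks was Kmt2a, a histone methyltransferase, with folds of 17.3 in replicate 1 and 13.1 in replicate 2. The acetyltransferase gene Ep300 had 10.1 and 11.0, and Csnk1d, a kinase of the PER proteins, had 8.44 and 9.34. Csnk2a1, a subunit of casein kinase 2, had 7.56 and 9.88, and the histone demethylase gene Kdm5a had 6.44 and 8.48. Bmal1 (listed as Arntl), the partner of CLOCK, held a peak in replicate 2 only, with a fold of 5.93 (3.98 to 8.54). So did Bhlhe41, a repressor at E-boxes (7.68), Btrc, a ligase subunit for PER (6.76), and Ddb1 (6.02). No peak of either list lay at Rora, Rorb, Usp2 or Timeless.

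Of 9 clock-controlled output genes, 1 held a shared region, the transcription factor gene Klf10, whose fold was 4.48 (interval 2.63 to 7.20) in replicate 1, and in replicate 2 it was 4.79 (2.90 to 7.52). That count is near the 17.3% of protein-coding genes with a shared region. A further 4 of the 9 held a peak in replicate 2 only, against 14.9% of protein-coding genes. They were Nampt, an enzyme of NAD synthesis (fold 6.58), the cell cycle inhibitor gene Cdkn1a (6.33), Alas1, an enzyme of heme synthesis (5.04), and the kinase gene Wee1 (3.93). Replicate 2 peaks thus lay at 5 of the 9 (55.6%), against 32.8% of protein-coding genes. No test of this list of 9 genes was made. None of the 12 genes of the suprachiasmatic nucleus, among them Vip, Avp, Prok2 and Lhx1, held a shared region or a peak in replicate 1, against 17.3% and 21.0% of protein-coding genes. In replicate 2, 2 of the 12 held a peak, the PACAP receptor gene Adcyap1r1 (5.21) and Zfhx3 (4.68), against 32.8%. With 12 genes these counts are too small to set the list apart from the background.

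**Figure D5:**
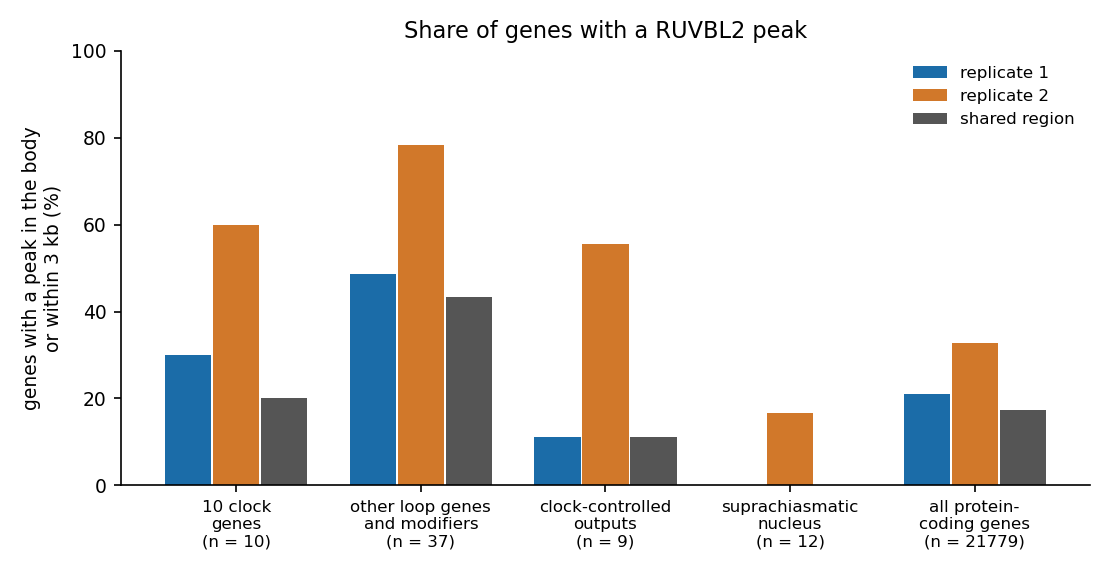
Share of genes (%) with a RUVBL2 peak in the body or within 3 kb, for the 10 clock genes, 3 lists of other clock genes and all protein-coding genes, in replicate 1, replicate 2 and shared regions. The clock genes stand at 30%, 60% and 20%, against 21.0%, 32.8% and 17.3% of all protein-coding genes, and the suprachiasmatic list has bars in replicate 2 only.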

How the data were processed

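RUVBL2 ChIP and input DNA of hypothalamus were fixed in 1% formaldehyde for 10 min, and 15 PCR cycles preceded paired sequencing of 150 bp, per the labels' protocols. Per the submitters' processing notes the build was GRCm38 and the tools were MACS2 2.1.0, Bowtie2 2.3.4.1, Trimmomatic 0.33, bcl2fastq 2.17 and ChIPseeker. No source used here gives the caller's settings or control. Per the file layout, the deposited peak lists, made per library by the authors, give each peak a fold enrichment, a −log10 p and a −log10 q; the deposited score is 10 times the −log10 q. In the replicate 2 list peaks are named Hyp3, while the title of that sample says Hyp2; GEO's sample record decided. Total reads per library are unknown here. Summit pileup and background were solved from fold and −log10 p, as whole numbers within a relative tolerance of 0.0001 for all but 1 peak of replicate 2, and this step was tested on simulated data. Counting intervals are exact Poisson 95% intervals of the pileup with the background fixed; they cover counting error only. Fold and −log10 p were ranked within a list only. Across lists they entered the worse of the ranks, the most similar pair of folds, the fold intervals at Clock and the pileup ratios.

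Genes came from a RefSeq table of GRCm38.p6 and starts, strand and sequence from its promoter table, in which 9 of the 10 members matched; Per2 had no entry. Gene rows lying in the initial 3 Mb of any chromosome but Y were left out. Exons and UTRs were not assigned. Overlap meant at least 1 bp. All 10 members were named; of other lists, up to 6 genes with a shared region and up to 4 with a peak in 1 list only, by rank; every gene with an end nearer a member's peak; and the region with the nearest pair of log2 folds. Some genes of these lists are counted but not reported here by name. Genes named as having no peak were chosen after their values were seen. Members and lists were chosen with earlier results of these data known. No test was run. Python 3.11.15, numpy 2.4.6, pandas 2.3.3 and scipy 1.17.1 were used.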

Additional observations from a re-analysis of the deposited data

How the results depend on the processing

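The counts of clock genes depended on the window and on the strength asked of a peak. Within 10 kb, 6 clock genes held a peak in replicate 1 (3 at 3 kb) and 5 held a shared region (2 at 3 kb), through peaks nearer the ends of Rpl31, Vamp2 and Sphk2. Over all protein-coding genes the shares were 24.7% and 20.5% within 10 kb, against 21.0% and 17.3% at 3 kb. At a −log10 q of at least 5, with the top 1000 peaks of each list, or with summits within 250 bp, 1 clock gene held a shared region, Nr1d2 in each case. In that order, 8.58%, 3.12% and 14.4% of protein-coding genes held one. With the top 1000 peaks, 1 clock gene held a peak in replicate 2, and 8 of the other 58 clock genes held a shared region (17 otherwise). The shares of protein-coding genes with the top 1000 peaks were 5.78% in replicate 2 and 3.12% for a shared region. When an annotated start had to lie inside, an alternative chosen after seeing the data, 1 clock gene held a peak in replicate 1 and 11 other clock genes held a shared region. Of all protein-coding genes, with or without a listed start, 9.05% held such a peak and 10.7% such a region. Ranked by fold, the median rank of the clock gene peaks was 886 in replicate 1 (970 by −log10 p) and 4077 in replicate 2 (3917.5). Using 1 library alone in place of shared regions, 3 to 6 of the 10 clock genes and 19 to 36 of the 58 others held a peak. With the other library in its place, the count was 6 for replicate 1 and 3 for replicate 2. For any use of 1 library, the shares of protein-coding genes were 21.0% in replicate 1 and 32.8% in replicate 2. The remaining alternatives kept the counts within 1.5 times. The titles pair each ChIP library with an input by number. No paired analysis was possible because the inputs were not analysed here, so each pair gives 1 peak list. Few reads per summit limit the intervals, which for all 9 peaks spanned more than 1.5 times.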

Other observations

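The genes in this paragraph were chosen after their values were seen. Bhlhe40, which encodes a repressor at E-boxes, held a peak in each list but no shared region, since its peaks did not overlap. Its fold was 3.70 (interval 2.00 to 6.37) in replicate 1, and in replicate 2 it was 5.74 (3.65 to 8.63). Tef, a relative of Dbp, held a shared region within its body, 8350 bp from the nearer of its ends, with folds of 4.26 and 5.09. Csnk1e, a kinase gene of the PER proteins, held one 13642 bp from its nearer end, with folds of 6.47 and 6.30. The shared regions of Clock and Nr1d2 both contained an annotated start.

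Of 10 marker genes of hypothalamic neurons, 1 (Pomc) held a shared region, and none of the other nine held a peak in either list. Over all protein-coding genes the shares were 17.3% for a shared region, 21.0% for a peak in replicate 1 and 32.8% in replicate 2. None of 5 markers of the suprachiasmatic nucleus and none of 11 markers of glia and vessels held a peak. A peak is not a level of expression, so these counts do not check the labelled tissue.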
